A study of Mus musculus with 14 samples.

Results

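Immune checkpoint and nectin-type ligands were taken by gene symbol from the deposited expression table. Cd274, Pdcd1lg2, Pvr, Pvrl1, Pvrl2, Pvrl3, Cd276, Cd80, Cd47 and Lgals9 were sought and all 10 were found, among 35275 genes. Messenger RNA was sequenced from murine KMF ovarian tumor cells and 4 lines derived from them, each grown for 5 days as anchorage-independent tumorspheres in serum-free medium. KMF cells descend from the C57Bl6 ovarian surface epithelial line ID8 after passage through mice, and carry copy number gains that include Myc and the FAK gene Ptk2. FAK KO cells (KT13, FAK-/-) are 1 CRISPR-edited clone of KMF. FAK-WT cells are KT13 re-expressing GFP-FAK, and FAK-R454 cells are KT13 re-expressing GFP-FAK-R454, a FAK protein without kinase activity, both from a lentivirus with a CMV promoter. β-catenin ΔGSK cells are KT13 expressing a β-catenin that lacks its GSK3β phosphorylation sites, from an MSCV viral vector. The 4 derived lines therefore share the FAK-/- background and its founding cell, and each stands for 1 clone or 1 transduced population. There were 3 samples per line and 2 of FAK-R454.

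Tumor cells carry on their surface a set of proteins that engage receptors of T cells, natural killer cells and macrophages. PD-L1 (Cd274) and PD-L2 (Pdcd1lg2) bind the inhibitory receptor PD-1, and CD80 binds CD28 and CTLA-4. These proteins and B7-H3 (Cd276) belong to the B7 family of immunoglobulin-like ligands. CD155 (Pvr) and the nectins (Pvrl1, Pvrl2 and Pvrl3, now named Nectin1, Nectin2 and Nectin3) are adhesion proteins of epithelial junctions, and CD155 and nectin-2 are also ligands of the activating receptor CD226 and the inhibitory receptor TIGIT. CD47 restrains phagocytosis through SIRPα on macrophages, and galectin-9 (Lgals9) is a secreted sugar-binding protein that can bind TIM-3.

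Values are FPKM, fragment numbers scaled to gene length and library size, so levels of different genes can be compared. Fragments assigned to genes numbered from 25390558 to 35289859 per library. Ptk2 mRNA was present in every line, at 20.45, 17.6 and 18.9 FPKM in the FAK KO samples against 24.8, 24.2 and 23.9 in KMF, and it was highest in FAK-WT (42.3, 42.5 and 45.4) and FAK-R454 (59.2 and 65.5). Ptk2 FPKM counts the edited transcript too and so does not show loss of the protein. Axin2, a target gene of β-catenin, ranged from 0.761 FPKM in FAK-R454 to 114 in β-catenin ΔGSK. Of 7 markers of ovarian surface epithelium, 6 (Krt8, Krt18, Krt19, Wt1, Msln and Upk3b) had a mean above 1 FPKM in every line. Of 11 leukocyte markers, Cd68 alone had a mean above 1 FPKM in any line. Ptprc, the pan-leukocyte marker, had 1 fragment in 1 sample and 0 in the other 13, and Cd3e, Ms4a1 and Ncr1 had 0 in all 14. Median absolute log2 differences between samples of the same line ran from 0.0628 to 0.181, and between lines from 0.136 to 0.418. FAK KO replicate 2 was 0.141 from a FAK-R454 sample at its closest and up to 0.174 from a FAK KO sample. FAK-WT replicate 3 was up to 0.140 from a FAK-WT sample, where FAK-WT and FAK-R454 samples were 0.136 to 0.167 apart, and its Cd68 level was 12.3 FPKM against 6.60 and 6.97 in the other FAK-WT samples. β-catenin ΔGSK replicate 1 was up to 0.181 from a sample of its own line. KMF replicate 3 was 0.126 and 0.1375 from KMF replicates 1 and 2, which were 0.0658 apart.

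The ligands differed widely in level. In FAK KO cells Cd47 was the most abundant at 98.3 ± 11.01 FPKM (SD, n = 3), followed by Pvrl2 at 80.1 ± 9.04, Lgals9 at 48.1 ± 2.64 and Pvrl1 at 28.3 ± 2.54. Pvr at 11.4 ± 0.756 and Cd276 at 8.71 ± 0.752 were intermediate. Cd80 lay near 1 FPKM, Cd274 was below 1 FPKM in all 14 samples, and Pdcd1lg2 and Pvrl3 had at most 1 and 7 fragments in a sample. By mean level the β-catenin ΔGSK line was the lowest of the 5 lines for Pvrl1, Cd276, Cd80 and Cd47, with no sample reaching the next line, and the highest for Pvrl2. It was also lowest for Cd274, Pvr and Lgals9, where its samples overlapped those of the next line (KMF for Cd274, FAK-R454 for Pvr and Lgals9).

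**Figure D1:**
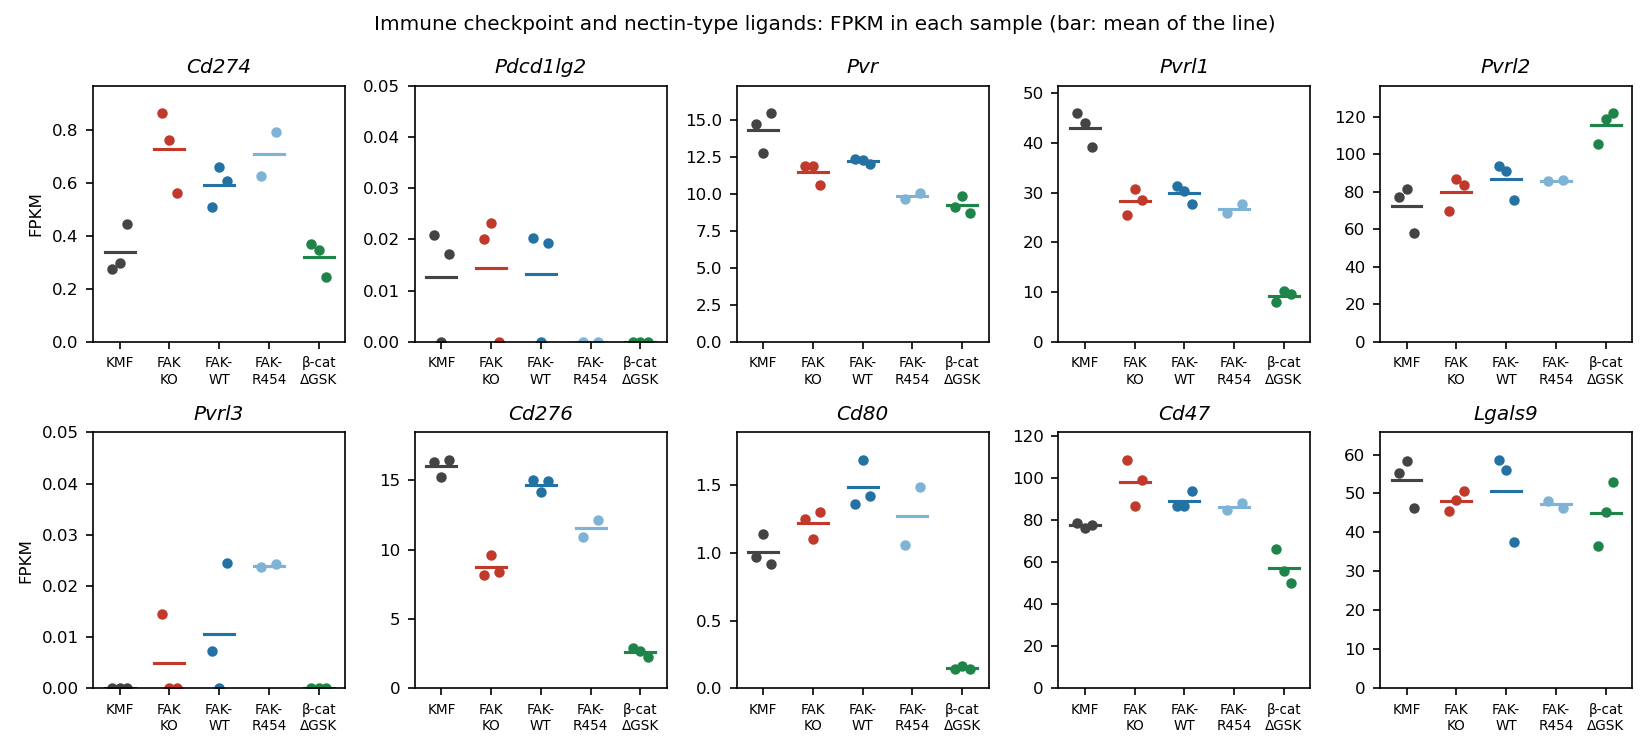
FPKM of each ligand (vertical axes, linear, from 0, 1 scale per gene) in the samples of the 5 lines (points), with the mean of each line as a bar. The β-catenin ΔGSK samples are set apart from all others for Pvrl1, Cd276, Cd80 and Cd47 (below) and for Pvrl2 (above), and Pdcd1lg2 and Pvrl3 stay under 0.025 FPKM.

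Upstream sequence is shown for Cd80 and Pvrl2, a lowered and the raised ligand in β-catenin ΔGSK cells; the pair was chosen with the motif matches known. Both are the 250 bases before the RefSeq transcription start in GRCm38.p6, 5′ to 3′ on the gene's strand, and RefSeq windows were found for 8 of the 10 ligands. The Cd80 stretch is chr16:38458683-38458932 on the plus strand and the Pvrl2 stretch chr7:19749574-19749823 on the minus strand; neither holds an annotated exon of GENCODE vM21. Capitals mark matches to the TCF/LEF core CTTTGA (the factors through which β-catenin acts on promoters) and to the AP-1 motif TGANTCA, searched on both strands.
Cd80: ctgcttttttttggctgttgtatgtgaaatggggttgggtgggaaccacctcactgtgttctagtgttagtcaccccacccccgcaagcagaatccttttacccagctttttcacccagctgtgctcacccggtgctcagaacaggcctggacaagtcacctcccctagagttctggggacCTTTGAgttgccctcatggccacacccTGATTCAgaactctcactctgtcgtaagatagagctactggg
Pvrl2: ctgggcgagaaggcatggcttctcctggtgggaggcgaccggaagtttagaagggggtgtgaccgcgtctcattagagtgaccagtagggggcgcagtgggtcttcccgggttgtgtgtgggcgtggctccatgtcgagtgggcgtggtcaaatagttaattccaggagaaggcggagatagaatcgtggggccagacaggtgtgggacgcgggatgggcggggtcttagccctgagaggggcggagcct
The Cd80 stretch held CTTTGA from 69 to 64 bases before the start and TGATTCA from 42 to 36 bases before it. The Pvrl2 stretch held neither, nor the interferon regulatory factor motif searched for (GAAA, any 2 bases, GAAA). Among 32817 RefSeq windows of 250 bases, 13.8% held the TCF/LEF core, 6.75% the AP-1 motif and 2.97% the interferon regulatory factor motif. Of the other ligands with a window, the lowered Cd276 and Cd47 held none of the 3 motifs, and neither did Pdcd1lg2 or Pvrl3. Of the 250 bases, 250 of the Cd276 window and 185 of the Cd274 window lie in annotated exons of GENCODE vM21. Cd274 held the TCF/LEF core on the opposite strand, 94 to 89 bases before its start, and Lgals9 the interferon regulatory factor motif, 55 to 46 bases before its start. The motifs were chosen after the sequences had been seen. The Pvrl2 stretch is 62.0% G or C with 16 CpG pairs and the Cd80 stretch 52.8% with 3, against a median of 52.4% over all windows.

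Cd276 (ENSMUSG00000035914, chromosome 9, 58524300 to 58555132, minus strand in the deposited table, mm10) passed the test in 5 of the 6 comparisons, more than any other ligand. Its FPKM was 16.3, 15.2 and 16.5 in KMF, 8.18, 9.57 and 8.38 in FAK KO, 14.98, 14.2 and 14.9 in FAK-WT, 10.9 and 12.1 in FAK-R454, and 2.88, 2.68 and 2.27 in β-catenin ΔGSK. No line overlapped its neighbour in the order β-catenin ΔGSK, FAK KO, FAK-R454, FAK-WT, KMF. Relative to FAK KO, Cd276 was 1.84-fold higher in KMF (log2 fold change 0.87, standard error 0.08, adjusted p = 4.84e-05, limma) and 1.69-fold higher in FAK-WT (0.75, standard error 0.08, adjusted p = 3.48e-04). In β-catenin ΔGSK cells it was 3.34-fold lower (log2 fold change -1.70, standard error 0.11, adjusted p = 4.58e-06). The difference between FAK-WT and KMF, at -0.12 on the log2 scale, did not pass the test (adjusted p = 0.122, 95% interval -0.26 to 0.01). With the kinase-inactive protein the rise over FAK KO was 0.40 (standard error 0.09, adjusted p = 0.0220), and FAK-WT exceeded FAK-R454 by 0.35 (standard error 0.07, adjusted p = 0.0358). Both of these calls depended on single libraries. The first was lost without FAK KO replicate 3 (adjusted p = 0.0811) or without either FAK-R454 sample (0.0955 and 0.195), and the other without FAK-WT replicate 1 (0.0976), FAK-WT replicate 2 (0.105) or either FAK-R454 sample (0.243 and 0.168). Both were also lost without the filter on low values, at adjusted p = 0.0582 and 0.0587, and the latter without a mean-variance trend (0.0559).

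Cd80 (ENSMUSG00000075122, chromosome 16, 38458933 to 38486933, plus strand), whose upstream stretch is shown above, was a low transcript with the widest range. It measured 0.971, 1.14 and 0.916 FPKM in KMF, 1.25, 1.10 and 1.30 in FAK KO, 1.36, 1.69 and 1.42 in FAK-WT and 1.06 and 1.48 in FAK-R454. The β-catenin ΔGSK samples measured 0.145, 0.162 and 0.140 FPKM, or 7 fragments each, against 48 to 80 fragments in the other samples. The 3 β-catenin ΔGSK samples thus lay far below the other 11, while KMF, FAK KO and FAK-R454 overlapped. The mean was 8.18-fold lower in β-catenin ΔGSK than in FAK KO cells. On the log2(FPKM + 0.1) scale, which compresses low values, the fall was -2.40 (standard error 0.21, adjusted p = 2.13e-05). It ranged from -0.95 with a pseudocount of 1 to -2.95 with limma-voom on recovered fragments, and adjusted p was at most 2.42e-04 in the 14 alternatives that tested it; with a pseudocount of 1 it was under the fold threshold of 1. FAK-WT exceeded KMF by 0.52 (standard error 0.14, adjusted p = 0.0241), a call lost without KMF replicate 1 (0.0753), KMF replicate 3 (0.0616) or FAK-WT replicate 2 (0.0962), and without the filter (0.0539).

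Cd274 (ENSMUSG00000016496, chromosome 19, 29367455 to 29388095, plus strand), the PD-L1 gene, did not reach the mean of 1 FPKM required for the test. It was 0.276, 0.297 and 0.446 FPKM in KMF, 0.862, 0.762 and 0.562 in FAK KO, 0.509, 0.658 and 0.606 in FAK-WT, 0.626 and 0.793 in FAK-R454 and 0.370, 0.348 and 0.244 in β-catenin ΔGSK. These are 26 to 94 fragments per sample. KMF and β-catenin ΔGSK samples were all below every FAK KO, FAK-WT and FAK-R454 sample. In the fit without a filter on low values, KMF was lower than FAK KO by 0.92 on the log2 scale (adjusted p = 0.0275) and β-catenin ΔGSK lower by 0.97 (adjusted p = 0.0168), while FAK-WT and FAK-R454 did not differ from FAK KO past the threshold (adjusted p = 0.476 and 0.959). The neighbouring gene Pdcd1lg2 (ENSMUSG00000016498, chromosome 19, 29410919 to 29471157) starts 22823 bases beyond the end of Cd274 with no gene between them. It had 1 fragment in each of 6 samples and 0 in the other 8, including all samples of FAK-R454 and β-catenin ΔGSK. At these depths a count of 0 allows up to between 0.0517 and 0.0718 FPKM, counting error only, so no difference in PD-L2 was detectable.

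Pvrl1 (ENSMUSG00000032012, chromosome 9, 43744576 to 43807454, plus strand) encodes nectin-1, a junction protein that pairs with other nectins. Its FPKM was 45.9, 44.0 and 39.2 in KMF, 25.6, 30.7 and 28.6 in FAK KO, 31.4, 30.4 and 27.8 in FAK-WT, 25.8 and 27.8 in FAK-R454 and 8.05, 10.3 and 9.55 in β-catenin ΔGSK. KMF was above and β-catenin ΔGSK below the 3 lines between, which overlapped. Pvrl1 was 1.52-fold higher in KMF than in FAK KO (log2 fold change 0.61, standard error 0.09, adjusted p = 6.28e-04) and 3.04-fold lower in β-catenin ΔGSK than in FAK KO (-1.60, standard error 0.11, adjusted p = 4.58e-06). FAK-WT cells remained below KMF by 0.53 (standard error 0.08, adjusted p = 0.00176), and their difference from FAK KO was 0.08 (95% interval -0.11 to 0.27, adjusted p = 0.455).

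Pvrl2 (ENSMUSG00000062300, chromosome 7, 19716644 to 19749573, minus strand), nectin-2, was the ligand that rose in β-catenin ΔGSK cells. It measured 106, 119 and 122 FPKM there, against 69.8, 86.9 and 83.5 in FAK KO, 77.4, 81.3 and 57.9 in KMF, 93.7, 91.1 and 75.6 in FAK-WT and 85.7 and 86.1 in FAK-R454. The β-catenin ΔGSK samples were above all 11 others, and the other 4 lines overlapped in order. The rise over FAK KO was 1.44-fold (log2 fold change 0.53, standard error 0.10, adjusted p = 0.00149). No other comparison of Pvrl2 passed the test.

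Pvr (ENSMUSG00000040511, chromosome 7, 19903578 to 19921160, minus strand), the CD155 gene, lies 154004 bases from Pvrl2 with 9 genes between them. It was 14.7, 12.8 and 15.4 FPKM in KMF, 11.9, 11.9 and 10.6 in FAK KO, 12.3, 12.3 and 12.0 in FAK-WT, 9.64 and 10.04 in FAK-R454 and 9.11, 9.84 and 8.70 in β-catenin ΔGSK. Each line was apart from its neighbour in this order except FAK-R454 and β-catenin ΔGSK, which overlapped. The differences were small: 1.25-fold higher in KMF than in FAK KO (log2 fold change 0.32, adjusted p = 0.0165), 1.24-fold lower in β-catenin ΔGSK than in FAK KO (-0.31, adjusted p = 0.0121) and 1.24-fold above FAK-R454 in FAK-WT (0.31, adjusted p = 0.0284). The KMF call was lost without KMF replicate 1 (adjusted p = 0.0608) or FAK KO replicate 3 (0.0720). The β-catenin ΔGSK call was lost with median-of-ratios scaling (adjusted p = 0.0624). The FAK-WT call was lost without FAK-WT replicate 1 (0.0873), FAK-WT replicate 2 (0.121), FAK-R454 replicate 1 (0.222) or FAK-R454 replicate 2 (0.204). Pvr overlaps the plus-strand genes Gm16184 (at most 3.31 FPKM) and Gm16251 (at most 0.942), and Pvrl2 overlaps Gm20512 (at most 0.543). Strand use in counting is not given in the sources used here, so fragments of these genes cannot be told apart from those of the ligands. Pvrl3 (ENSMUSG00000022656, chromosome 16, 46387706 to 46498525), nectin-3, had 0 fragments in 9 samples, KMF and β-catenin ΔGSK among them, and at most 7 in any sample.

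Cd47 (ENSMUSG00000055447, chromosome 16, 49855618 to 49915010, plus strand) was 78.7, 76.1 and 77.9 FPKM in KMF, 109, 86.8 and 99.4 in FAK KO, 86.9, 86.7 and 94.0 in FAK-WT, 84.8 and 88.3 in FAK-R454 and 66.3, 55.8 and 50.1 in β-catenin ΔGSK. The β-catenin ΔGSK samples were lowest and the KMF samples next, and FAK KO, FAK-WT and FAK-R454 overlapped. Cd47 was 1.71-fold lower in β-catenin ΔGSK (log2 fold change -0.78, standard error 0.12, adjusted p = 5.21e-04) and 1.27-fold lower in KMF (-0.34, standard error 0.08, adjusted p = 0.0102) than in FAK KO. The rise of FAK-WT over KMF, 0.20 on the log2 scale (adjusted p = 0.0230), was lost in 1 fit of all 5 lines (0.104) and without KMF replicate 1 (0.0673), KMF replicate 2 (0.0815), FAK-WT replicate 1 (0.0508) or FAK-WT replicate 2 (0.0580).

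Lgals9 (ENSMUSG00000001123, chromosome 11, 78962974 to 78984946, minus strand) spanned the least between line means of the 7 tested ligands. Its FPKM was 55.4, 58.4 and 46.3 in KMF, 45.4, 48.2 and 50.7 in FAK KO, 58.6, 55.9 and 37.6 in FAK-WT, 48.0 and 46.3 in FAK-R454 and 36.5, 45.3 and 52.9 in β-catenin ΔGSK. All lines overlapped, and no comparison passed the test. The interval of the difference between β-catenin ΔGSK and FAK KO was -0.39 to 0.16 on the log2 scale. Leaving out FAK-WT replicate 3, the lowest FAK-WT sample, gave a rise of 0.25 over FAK KO (adjusted p = 0.0222) and of 0.28 over FAK-R454 (0.00255), and leaving out KMF replicate 3 gave a rise of 0.24 in KMF over FAK KO (0.0181).

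**Figure D2:**
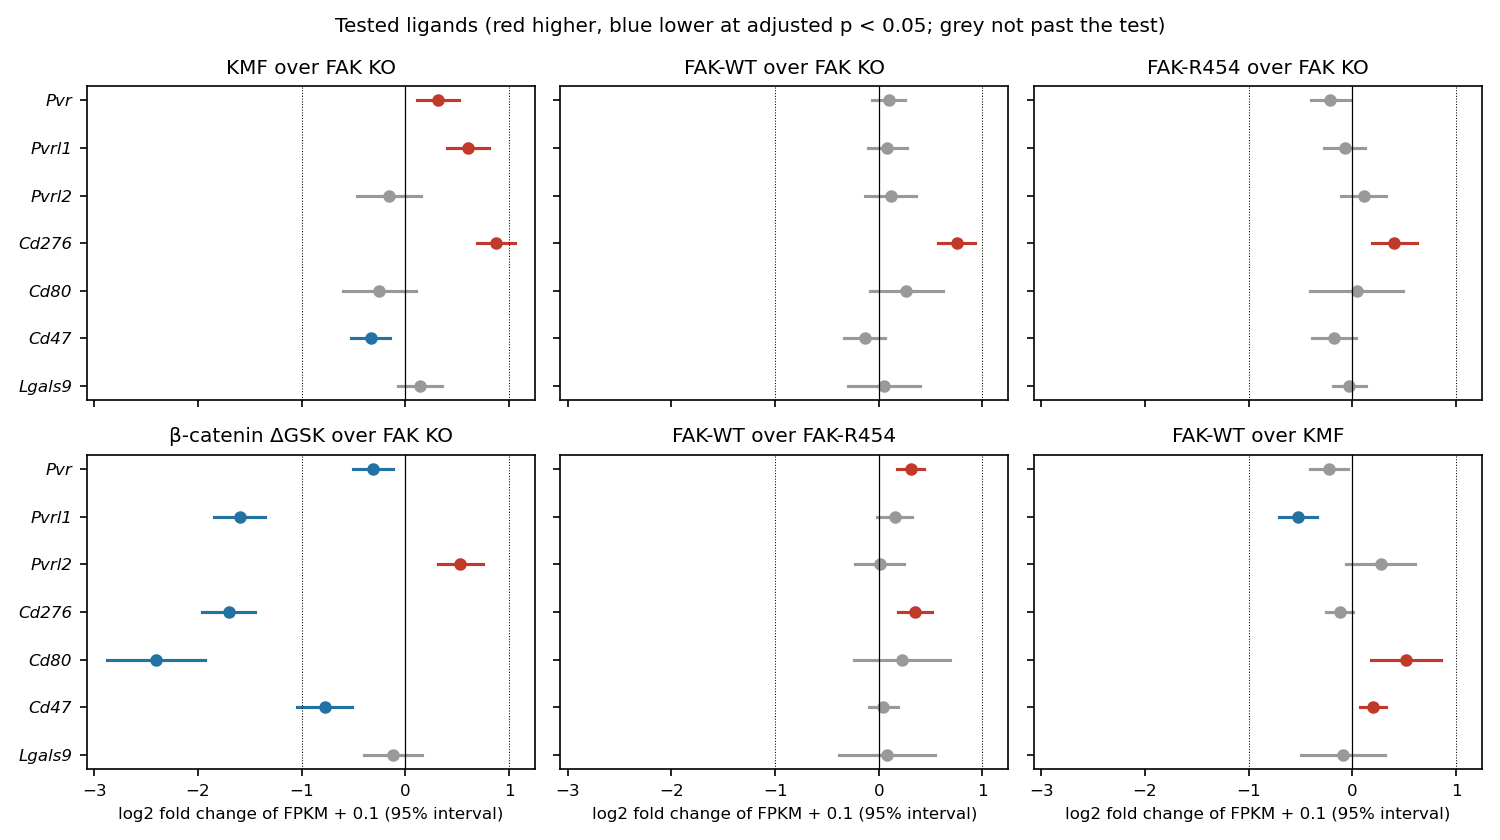
Log2 fold change of FPKM + 0.1 (horizontal axis) with its 95% interval for the 7 tested ligands in the 6 comparisons; red is higher and blue lower at adjusted p under 0.05 (limma), grey did not pass, and dotted lines mark a fold change of 1 on the log2 scale. The β-catenin ΔGSK panel holds the 3 points beyond the dotted lines, Pvrl1 at -1.60, Cd276 at -1.70 and Cd80 at -2.40.

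The comparison of KMF with FAK KO sets the parental line against 1 edited clone. Loss of FAK and other differences of that clone cannot be told apart in it. Of the 10 ligands, 7 passed the filter on low values here and in every other comparison. Cd276, Pvrl1 and Pvr (3 of 7) were higher in KMF and Cd47 (1 of 7) was lower. Of the 11893 genes tested, 23.1% were higher and 28.7% lower. With median-of-ratios scaling the share of higher genes among all that changed went from 44.6% to 52.3%, and the count of ligands stayed at 4. With a log2 fold change of at least 1 also required, 0 ligands and 8.01% of all genes were called. The median log2 fold change was 0.14 over the 7 ligands and -0.05 over all genes. The summed endothelial list, nearly all of it Tek, ranged from 29.6 to 29.95 FPKM in KMF and from 17.8 to 19.2 in FAK KO. Of 6 epithelial markers tested, Upk3b (log2 fold change 0.98) and Krt18 (0.64) were higher in KMF. Krt19 was lower (-0.22, a call lost in 8 of 15 alternatives). The part of either list in these differences was not tested.

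Re-expression of FAK in the clone is compared with FAK KO next. In FAK-WT cells Cd276 was higher (1 of 7) and no ligand was lower, where 15.6% of 11841 genes were higher and 25.2% lower. At an unadjusted p under 0.05 no ligand was lower either. None of the 7 had a log2 fold change of at least 1, against 4.62% of all genes. With median-of-ratios scaling the share of higher genes among all that changed went from 38.3% to 52.3%, and the count of ligands stayed at 1. Without FAK KO replicate 2 the count was 2, with Cd47 lower (-0.22, adjusted p = 0.0428), and without FAK-WT replicate 3 it was 2 with Lgals9. The summed leukocyte list ranged from 6.77 to 12.4 FPKM in FAK-WT and from 2.89 to 3.21 in FAK KO, nearly all of it Cd68. Of the ovarian surface epithelium markers 5 of 6 tested were higher in FAK-WT and 0 lower (4 of 6 without FAK KO replicate 3, where Krt19 had an adjusted p of 0.0516), and their summed level was 1569 to 1809 FPKM against 1068 to 1250 in FAK KO. The part of either list in the Cd276 result was not tested. In FAK-R454 cells Cd276 was again the 1 ligand higher, where 9.78% of 11818 genes were higher and 9.89% lower, and 2.74% passed the fold threshold, none of them a ligand. Pvr was lower at an unadjusted p of 0.0302. Without FAK KO replicate 2 the count was 2, with Cd47 lower (-0.26, adjusted p = 0.0142), and without FAK KO replicate 3 it was 0. All genes changed numbered 4390 and 1178 in these fits, against 2325 with every sample. The summed leukocyte list was 4.32 and 4.36 FPKM in FAK-R454, and of the epithelial markers Upk3b (31.1 and 32.0 against 3.72, 5.08 and 3.27 FPKM, log2 fold change 2.96, adjusted p = 4.30e-05) and Wt1 (0.22, adjusted p = 0.0412, lost in 7 of 14 alternatives) were higher; their part was not tested. The comparisons with FAK KO share the FAK KO samples. FAK-WT and FAK-R454 differ in kinase activity, but also in transduced population and in Ptk2 mRNA (mean 43.4 against 62.4 FPKM). These cannot be told apart here. In FAK-WT over FAK-R454, Cd276 and Pvr (2 of 7) were higher and none was lower, against 3.38% of 11782 genes higher and 4.44% lower. The fold threshold was passed by 0 ligands, against 1.44% of genes. The count of lower ligands was also 0 at an unadjusted p under 0.05. Without FAK-WT replicate 1 or 2 the count was 0, and without FAK-WT replicate 3 it was 4. The number of all genes changed moved too, from 921 to 334, 157 and 3312 without FAK-WT replicates 1, 2 and 3. The share of higher genes was 43.2% in this comparison and 56.6% with median-of-ratios scaling. Of 6 epithelial markers tested in FAK-WT over FAK-R454, 4 were higher (Krt8 by 0.62, Krt18 by 0.64, Krt19 by 0.35 and Msln by 0.38). Upk3b was lower (-2.09). Each of these calls was lost in some alternatives, and the part of these markers was not tested. FAK-WT against KMF compares re-expressed with endogenous FAK and also a clone-derived line with its parent, which cannot be told apart. In it Cd80 and Cd47 (2 of 7) were higher and Pvrl1 (1 of 7) lower, against 18.2% and 23.5% of 11847 genes. The fold threshold was passed by 0 ligands, against 5.93% of genes. Without KMF replicate 1 or FAK-WT replicate 2 the count was 1, with 3641 and 3597 of all genes changed in place of 4934. Pvr was at -0.22 (adjusted p = 0.0516) and passed in 4 alternatives, with adjusted p from 0.0147 to 0.0476. Cd68 was higher in FAK-WT than in KMF (log2 fold change 1.41, adjusted p = 0.00339) and Tek lower (-0.76, adjusted p = 7.41e-05). Of 6 epithelial markers tested, 3 were higher (Krt8 by 0.87, Krt19 by 0.59 and Msln by 0.555 on the log2 scale) and 0 lower. The part of these genes in the ligand differences was not tested.

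β-catenin ΔGSK against FAK KO gave the largest differences. Pvrl1, Cd276, Cd80, Cd47 and Pvr (5 of 7) were lower, and Pvrl2 (1 of 7) was higher, leaving Lgals9. Of 11915 genes tested, 34.4% were lower and 23.7% higher. Pvrl1, Cd276 and Cd80 (3 of 7) also passed the fold threshold, against 12.1% of all genes. Cd80 entered the test only through FAK KO (mean 1.22 against 0.149 FPKM) and so could enter only as a fall. The counts of lower ligands and the ligand median lean that way. With a pseudocount of 1 or a required mean FPKM above 5, 2 ligands passed the fold threshold, where 955 and 782 genes did in place of 1444. The median log2 fold change was -0.78 over the ligands and -0.09 over all genes. Median-of-ratios scaling moved the median of all genes by 0.10 and the share of higher genes from 40.8% to 53.0%. Under it Pvrl1, Cd276, Cd80 and Cd47 remained lower and Pvrl2 higher. Cd68, the 1 leukocyte marker that was tested, was also lower in β-catenin ΔGSK (1.06, 1.86 and 1.05 FPKM) than in FAK KO (3.02, 3.15 and 2.79), and the summed leukocyte list ranged from 1.14 to 1.92 FPKM against 2.89 to 3.21. The part of Cd68-expressing cells in these differences was not tested; in bulk RNA fewer cells of a type and less RNA per cell cannot be told apart. Tek, of the endothelial list, was lower too (6.29, 6.72 and 7.25 against 18.1, 16.6 and 17.5 FPKM) and passed the fold threshold. So did Pecam1 (0.256, 0.435 and 0.168 against 1.10, 1.17 and 0.789 FPKM, log2 fold change -1.58, adjusted p = 0.00185, and -0.65, under the fold threshold, with a pseudocount of 1). Pecam1 entered the test only through FAK KO (mean 1.02 against 0.286 FPKM). The part of Tek and Pecam1 in these differences was not tested. The endothelial markers Cdh5 and Kdr had at most 5 and 1 fragments in a sample. Of the 6 epithelial markers tested, Wt1 (log2 fold change 1.21, adjusted p = 8.86e-07), Upk3b (adjusted p = 2.57e-04) and Krt19 (0.55, adjusted p = 7.20e-04) were higher in β-catenin ΔGSK, and Krt8 (-0.81, adjusted p = 9.75e-05) and Msln (-0.55, adjusted p = 0.00216) lower; their part was not tested either.

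**Figure D3:**
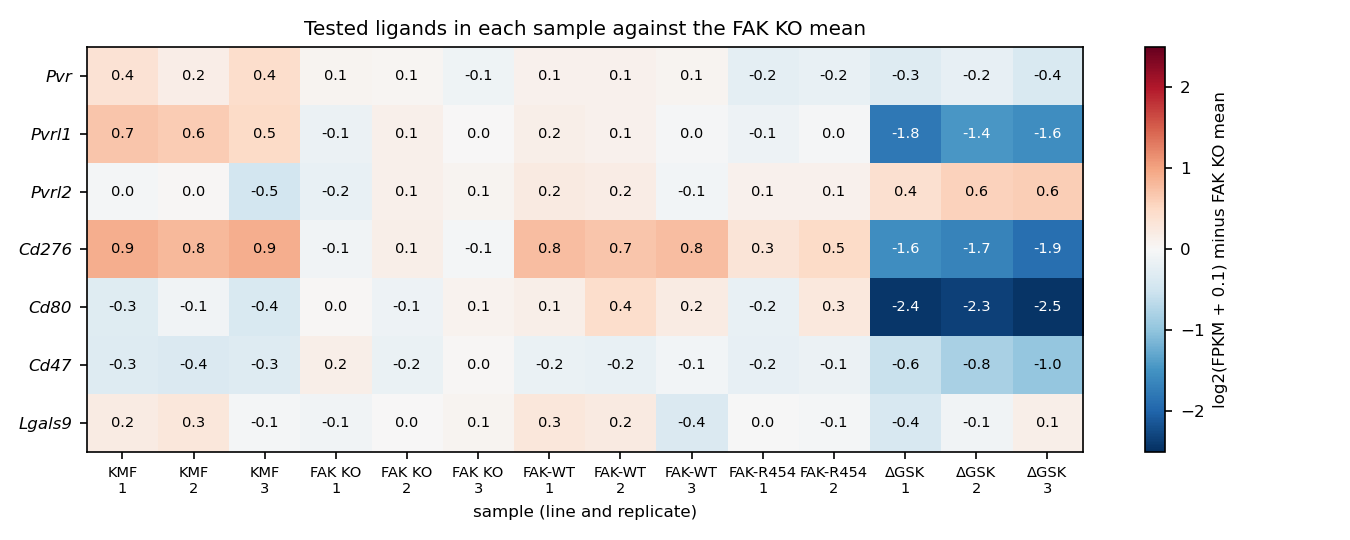
Log2(FPKM + 0.1) of each tested ligand (rows) in each of 14 samples (columns, by line and replicate) minus the mean of the FAK KO samples; red is above and blue below that mean. The 3 β-catenin ΔGSK columns are below it for Pvr, Pvrl1, Cd276, Cd80 and Cd47 and above it for Pvrl2, and the KMF, FAK-WT and FAK-R454 columns are above it for Cd276.

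Across the 14 samples the 7 tested ligands differed in how they moved with each other. Pvrl1 and Cd276 had a Pearson r of 0.956, Cd276 and Cd80 of 0.913, and Cd80 and Cd47 of 0.884. Pvrl2 had negative r with Pvrl1 (-0.776), Pvr (-0.775), Cd276 (-0.772), Cd47 (-0.697) and Cd80 (-0.691). The 14 points share 5 lines and their libraries, so these values are a description. Between the highest and lowest line means Cd80 spanned 2.67, Cd276 2.57 and Pvrl1 2.20 on the log2 scale, against a median of 0.56 over 12256 genes. For these 3 ligands the genes with the most similar profile were taken by Pearson r over the 14 samples. Car12 (r = 0.988), a carbonic anhydrase, Coro2b (0.985) and Lcn2 (0.983), which encodes lipocalin-2, were most like Cd80. Col3a1 (0.989), a fibrillar collagen, Pltp (0.989), a phospholipid transfer protein, and Zfp423 (0.988), a zinc finger factor, were most like Cd276. Lrrc26 (0.990), Fam129b (0.986) and Gpr20 (0.986) were most like Pvrl1.

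**Figure D4:**
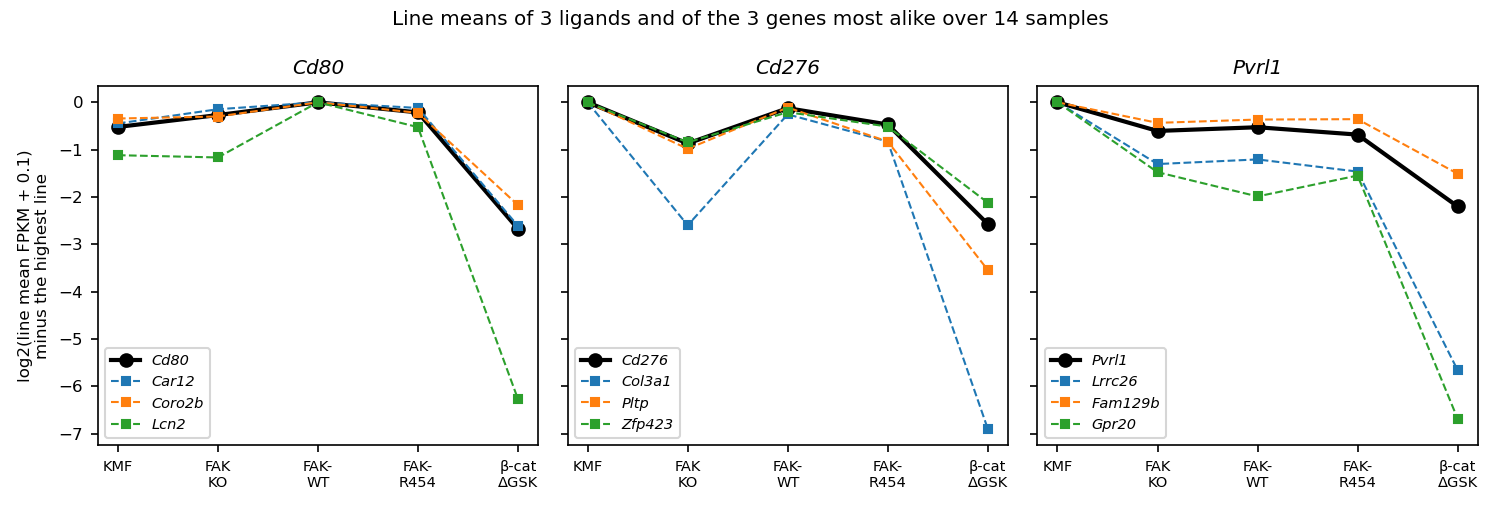
Line means on the log2(FPKM + 0.1) scale, each gene drawn relative to its highest line, for Cd80, Cd276 and Pvrl1 (black) and the 3 genes most similar to each over 14 samples (dashed). All 12 genes are lowest in β-catenin ΔGSK; in FAK KO, Col3a1 is well below KMF and FAK-WT, as Cd276 is by a smaller amount.

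Receptors and partners of the ligands were also measured in these tumor cells. Of 9 receptor genes in the table, Sirpa, Pdcd1 and Rgmb passed the filter in β-catenin ΔGSK against FAK KO. Sirpa and Pdcd1 were higher there and Rgmb lower, where 34.4% of all genes were lower and 23.7% higher. Pdcd1 passed the filter only through β-catenin ΔGSK (mean 1.74 against 0.552 FPKM in FAK KO). Nothing is therefore read from how many receptors changed. Sirpa, which encodes the CD47 receptor SIRPα, was 7.31, 7.04 and 7.37 FPKM in β-catenin ΔGSK and 2.69, 3.21 and 2.83 in FAK KO (log2 fold change 1.29, standard error 0.10, adjusted p = 8.32e-06). Pdcd1, the PD-1 gene, was 1.99, 1.57 and 1.66 FPKM in β-catenin ΔGSK, 2.17, 2.07 and 1.39 in FAK-WT, 1.04 and 1.01 in FAK-R454, 0.327, 0.497 and 0.833 in FAK KO and 0.0535, 0.130 and 0.117 in KMF. KMF samples were the lowest for Pdcd1, and no FAK KO sample reached those of FAK-WT or β-catenin ΔGSK. Its log2 fold change was 1.65 in FAK-WT over FAK KO (standard error 0.30, adjusted p = 0.00432), 1.56 in β-catenin ΔGSK over FAK KO (0.27, adjusted p = 0.00135) and 3.30 in FAK-WT over KMF (0.27, adjusted p = 1.38e-04). The last rests on 3, 7 and 8 Pdcd1 fragments in KMF and ranged from 1.37 with a pseudocount of 1 to 4.15 with limma-voom. With a pseudocount of 1 the others were 0.89 and 0.83, under the fold threshold. Of 6 CD47 partners and modifiers, 5 were tested in β-catenin ΔGSK over FAK KO and 1 rose and 3 fell, beside the same shares of all genes; Calr, among the latter, and Rgmb lost the call with median-of-ratios scaling (adjusted p = 0.0589 and 0.0843). Thbs1, a secreted ligand of CD47, fell by 1.02 on the log2 scale in that comparison (adjusted p = 2.72e-04) and rose in KMF (1.71, adjusted p = 2.97e-06), FAK-WT (1.18, adjusted p = 1.21e-04) and FAK-R454 (1.63, adjusted p = 6.82e-05) over FAK KO. Cd24a, another signal against phagocytosis, fell by 1.46 in β-catenin ΔGSK (adjusted p = 5.37e-05) and by 1.27 in FAK-R454 (adjusted p = 0.00214). It was also lower than in FAK KO in KMF (-0.74, adjusted p = 5.22e-04) and FAK-WT (-0.73, adjusted p = 0.0199, but 0.0772 without FAK KO replicate 1, 0.0538 without FAK KO replicate 3 and 0.0502 without a filter), so every sample of the 4 other lines was below every FAK KO sample.

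Among 8 other B7-family and related genes in the table, Icosl, Tnfrsf14 and Ildr2 passed the filter in β-catenin ΔGSK over FAK KO, with 1 higher and 1 lower, where 23.7% of all genes were higher and 34.4% lower. Icosl, the ligand of ICOS, was 2.71, 4.04 and 4.56 FPKM in β-catenin ΔGSK against 19.7, 19.9 and 20.45 in FAK KO, and fell by 2.41 on the log2 scale (standard error 0.17, adjusted p = 5.47e-06). Tnfrsf14, which encodes HVEM, a TNF receptor superfamily member that binds BTLA, was highest in KMF at 3.31, 3.98 and 5.04 FPKM, above FAK KO by 2.75 (adjusted p = 2.45e-05). That value rests on 11, 15 and 19 Tnfrsf14 fragments in FAK KO and ranged from 1.73 with a pseudocount of 1 to 2.96 with limma-voom, and the log2 fold change of FAK-WT over KMF was -1.89 (adjusted p = 1.85e-04). Of 7 other nectins and nectin-like proteins, 3 were tested in β-catenin ΔGSK over FAK KO, where Cadm1 rose by 1.19 (31.7, 29.7 and 26.3 against 13.3, 11.8 and 13.3 FPKM, adjusted p = 9.29e-06), Cadm4 fell by 0.94 (adjusted p = 3.02e-05) and Mllt4, the nectin-binding afadin gene, had a log2 fold change of -0.09 (adjusted p = 0.239). Of 12 regulators of Cd274, 11 were tested in that comparison, with 1 higher (Nfkb1), 4 lower (Irf2, Jak1, Ifngr1 and Cmtm6; Irf2 lost the call in 6 of 15 alternatives) and none at a log2 fold change of at least 1, against the shares of all genes given above and 12.1% past the fold threshold. The median of these 11 was -0.14, against -0.09 over all genes. In FAK-WT over KMF 3 of 12 regulators were higher and 7 lower, where 18.2% of all genes were higher and 23.5% lower. In KMF over FAK KO 4 of 12 were higher and 2 lower, where 23.1% of all genes were higher and 28.7% lower. Some of these calls were lost in alternatives. Of 11 tested, 5 changed in FAK-WT over FAK KO, where 15.6% of all genes were higher and 25.2% lower. In FAK-R454 over FAK KO 1 changed, where 9.78% of all genes were higher and 9.89% lower. In FAK-WT over FAK-R454 2 changed, where 3.38% of all genes were higher and 4.44% lower. Nothing is read from these counts.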

How the data were processed

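RNA of 14 tumorsphere samples from 5 lines was sequenced by the authors after poly(A) selection. FPKM per gene was calculated by the authors and deposited in 1 table, with 0 columns left unused. The published methods name TopHat2 and the submitters' processing notes name STAR 2.5, CASAVA 1.8, DESeq2 and mm10, so the aligner behind the values is uncertain; the table's FPKM were used as deposited. Depth was recovered from the FPKM steps: with gene length removed, 100% of values were whole multiples of 1 fragment (tolerance 0.01). The published methods describe 3 RNA samples of FAK-R454, of which 2 were analysed here. All columns were assigned to samples by name.

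Pairs of lines were compared with limma 3.58.1 in R 4.3.3 (lmFit and eBayes with a mean-variance trend) on log2(FPKM + 0.1), which understates changes of low genes. Genes with a mean FPKM above 1 in at least 1 of the pair were tested. A gene under that mean in 1 line entered only through the line where it was higher. Cd80, Pecam1, Pdcd1, Tnfrsf14, Lgals12 and Raet1d did so in some comparisons, and counts that include them lean toward a change. P-values were adjusted by the Benjamini-Hochberg method over all genes tested. Higher or lower means adjusted p under 0.05, and the fold threshold adds a log2 fold change of at least 1 and, for the line with more, a mean FPKM over 1. The published methods place the KMF samples at different cell passages. For the 4 derived lines the sources used here do not state separate cultures, so p-values measure the spread between these samples, which may be technical. No 2 libraries agreed within sampling noise: chi-square per gene was at least 3.33. The ligands and gene lists were chosen with earlier results of these data known, and named genes are the 10 ligands, Ptk2, Ctnnb1 and Axin2, up to 3 called genes per list with the largest fold change, and the 3 genes most like each of the 3 ligands with the widest range; other list genes named were chosen after their values were seen. Alternatives were another pseudocount (1 or 0.01), no filter or a mean FPKM above 5, 1 fit of all lines, no trend, scaling by median of ratios, the replicate number as a block, limma-voom on the recovered fragments and each sample left out in turn. Python 3.11.15, pandas 2.3.3 and numpy 2.4.6 were used for tables, and GENCODE vM21 and RefSeq windows of GRCm38.p6 for sequence.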

Additional observations from a re-analysis of the deposited data

How the results depend on the processing

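Of 610 alternative values of the 7 tested ligands, 558 kept their direction and side of the threshold, 26 lost the call, 13 gained one and 13 turned direction; all 13 that turned were differences that had not passed the test. The falls of Pvrl1, Cd276, Cd80 and Cd47 and the rise of Pvrl2 in β-catenin ΔGSK over FAK KO, and the rises of Cd276 in KMF and FAK-WT over FAK KO, stayed past the adjusted p threshold in every alternative that tested them. The count of ligands that changed in FAK-R454 over FAK KO was 1 and became 0 without a filter. In FAK-WT over FAK-R454 it was 2 and became 1 without a filter or without a trend. Leaving out 1 sample gave counts of 1 to 2 in FAK-WT over FAK KO, 0 to 2 in FAK-R454 over FAK KO, 0 to 4 in FAK-WT over FAK-R454 and 1 to 3 in FAK-WT over KMF. Leaving out 1 sample turned the log2 fold change of Lgals9 to between -0.068 and 0.25 in FAK-WT over FAK KO, -0.068 and 0.011 in FAK-R454 over FAK KO, -0.24 and 0.026 in β-catenin ΔGSK over FAK KO, -0.040 and 0.28 in FAK-WT over FAK-R454 and -0.21 and 0.11 in FAK-WT over KMF. It turned Cd80 to between -0.18 and 0.27 in FAK-R454 over FAK KO and between -0.0012 and 0.45 in FAK-WT over FAK-R454, and Pvrl2 to between -0.050 and 0.10 in FAK-WT over FAK-R454. The cause was not tested.

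Replicate numbers recur in each line, but deviations of same-numbered samples correlated at 0.41, 0.24 and 0.08 in β-catenin ΔGSK with FAK KO and from -0.23 to 0.12 in the other comparisons, so the samples were not treated as paired. With the replicate block the count of ligands that changed went from 3 to 4 in FAK-WT over KMF, with Pvrl2 added (0.27, adjusted p = 0.0278 against 0.158 without the block). It was 4 in FAK-WT over FAK-R454, where this fit also drops FAK-WT replicate 3, and the log2 fold change of Lgals9 in FAK-R454 over FAK KO was 0.011. Genes changed in FAK-WT over FAK-R454 were 921, against 3393 in that fit and 3312 without FAK-WT replicate 3 and with no block, so the move cannot be put down to the block. Without a filter those genes numbered 581 there, and 1526 in place of 2325 in FAK-R454 over FAK KO; leaving out 1 sample gave 7 to 3312 and 548 to 4390. Of 2177 alternative values of Ptk2, Ctnnb1, Axin2 and the genes of the other lists that had changed, 1981 kept their direction and side of the adjusted p threshold, which leaves the fold threshold aside, and 196 lost that call, among them Ctnnb1 in FAK-WT over FAK KO and Lgals12 in FAK-R454 over FAK KO without FAK-R454 replicate 2; these alternatives were added after seeing the data. Depth limits Cd274, Pdcd1lg2 and Pvrl3, which were not tested, and Cd80 in β-catenin ΔGSK, which rests on 7 fragments per sample. FAK-R454 rests on 2 samples, and with 1 of them left out the remaining sample is assumed to vary like the other line.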

Other observations

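Other galectin genes changed in several comparisons. In β-catenin ΔGSK over FAK KO all 7 tested galectin genes changed, with 3 higher and 4 lower, where 23.7% of all genes were higher and 34.4% lower. Lgals1, the most abundant galectin gene, rose by 1.22 on the log2 scale (mean 2651 against 1135 FPKM, adjusted p = 8.42e-06, limma), and Lgals12 fell by 3.58 (mean 0.0430 against 1.60 FPKM, adjusted p = 3.28e-06). The Lgals12 value rests on 2 to 4 fragments per β-catenin ΔGSK sample and ranged from -5.04 with limma-voom to -1.32 with a pseudocount of 1. Lgals4 fell by 1.41 (adjusted p = 1.90e-05) and Lgals7 by 1.06 (adjusted p = 2.33e-05). In FAK-WT over FAK KO, 6 of 7 galectin genes changed, 3 in each direction, where 15.6% of all genes were higher and 25.2% lower, among them Lgals2 with a log2 fold change of 1.06 (adjusted p = 0.00104); Lgals3 and Lgals4 each lost the call in 5 of 15 alternatives. Lgals7 also fell in FAK-R454 over FAK KO, by 1.27 (adjusted p = 8.66e-05). Lgals12 passed the filter only through FAK KO (mean 1.60 FPKM) when compared with β-catenin ΔGSK (0.0430) and with FAK-WT (0.478). For that reason nothing is read from how many galectin genes changed.

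Of 5 TNF-family costimulatory ligands in the table, Tnfsf9, the 4-1BB ligand, alone passed the filter. It rose over FAK KO in all 4 other lines, by 1.22 in FAK-WT (adjusted p = 0.00431), 1.09 in β-catenin ΔGSK (adjusted p = 2.29e-04), 0.89 in FAK-R454 (adjusted p = 0.00573, but 0.0833 without FAK-R454 replicate 1) and 0.75 in KMF (adjusted p = 0.00136). Of 5 NKG2D ligands, which mark stressed cells for natural killer cells, 3 were tested in FAK-WT over KMF, with 2 higher and 1 lower, where 18.2% of all genes were higher and 23.5% lower. Raet1e lost the call in 7 of 15 alternatives and Ulbp1 in 5 of 14. Raet1d was higher by 2.03 (adjusted p = 5.30e-04), with a range of 0.87 with a pseudocount of 1 to 2.39 with one of 0.01. It passed the filter only through FAK-WT (mean 1.26 against 0.235 FPKM in KMF), so nothing is read from the count of 2 higher. Of the NKG2D ligands tested elsewhere, 1 of 2 changed in KMF over FAK KO and none in the remaining comparisons. The comparisons with FAK KO share the FAK KO samples.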
